A study of Mus musculus with 9 samples.

Results

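The mouse mitochondrial genome carries 37 genes with an mt- symbol: 13 protein-coding genes, 2 ribosomal RNA genes and 22 tRNA genes. They were taken as every gene with that symbol that the annotation places on the mitochondrial chromosome, a rule that uses no measured value. Of the 37, 35 were in the count table of 49315 gene IDs. The ribosomal RNA genes mt-Rnr1 and mt-Rnr2 were not analysed here.

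The data were RNA-seq libraries from co-cultures of GFP+ SB28 cells, a mouse glioblastoma line of C57BL6 origin, with primary neonatal astrocytes of C57BL6 mito::mKate2 mice. In these mice a transgene under the broadly active CAG promoter places the red fluorescent protein mKate2 in mitochondria. The cells were untreated, shared the culture at a ratio of 1:1 for 2 days in medium with FBS, N2 supplement, EGF and FGF (2% FBS and 5% N2 per the labels, where the study's methods give other amounts), and were then sorted into astrocytes, mKate2- SB28 cells without detected astrocyte mitochondria, and mKate2+ SB28 cells that had taken them up. Each group had 3 libraries, from 3 biological replicates. Total counts ranged from 24454561 to 35135662 in astrocytes, from 27187348 to 35891589 in mKate2- cells and from 34175016 to 39287841 in mKate2+ cells. Because astrocytes and SB28 cells come from the same strain, mitochondrial RNA of the donor and of the recipient cannot be told apart in gene counts. SB28 is a single line, so the tumor groups are models of that line alone.

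Mitochondrial DNA is a circle that is transcribed from both strands as long precursors, and tRNAs lying between the mRNAs mark where these precursors are cut. Most genes are read from the heavy-strand promoter, while mt-Nd6 and several tRNAs are read in the opposite direction, from the light-strand promoter. All of the encoded proteins are subunits of respiratory complexes I, III and IV or of ATP synthase (complex V), whose other subunits are encoded in the nucleus and imported. In this annotation 12 mRNAs and 14 tRNAs belonged to heavy-strand transcripts, and mt-Nd6 and 8 tRNAs to light-strand transcripts.

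Of the tRNA genes, 6 on which the comparisons turn are printed with the anticodon in capitals, 5 of the light strand and 1 of the heavy strand. The sequences are those of GENCODE M21 on GRCm38, written as DNA in the direction of the tRNA. The tRNAs for alanine (mt-Ta, chrM:5018-5086), asparagine (mt-Tn, chrM:5089-5159) and cysteine (mt-Tc, chrM:5192-5257) lie next to each other on the minus strand. The tRNAs for glutamate (mt-Te, chrM:14071-14139) and proline (mt-Tp, chrM:15356-15422) are also on the minus strand, and that for phenylalanine (mt-Tf, chrM:1-68) is the first gene of the heavy-strand transcript.
mt-Ta: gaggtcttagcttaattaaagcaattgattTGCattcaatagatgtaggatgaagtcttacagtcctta
mt-Tn: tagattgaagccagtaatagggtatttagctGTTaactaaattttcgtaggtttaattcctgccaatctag
mt-Tc: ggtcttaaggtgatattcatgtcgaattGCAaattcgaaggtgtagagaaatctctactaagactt
mt-Te: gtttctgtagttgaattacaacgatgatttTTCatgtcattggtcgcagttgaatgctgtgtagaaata
mt-Tp: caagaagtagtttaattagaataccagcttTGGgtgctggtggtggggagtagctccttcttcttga
mt-Tf: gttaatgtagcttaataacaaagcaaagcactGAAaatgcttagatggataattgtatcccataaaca

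The 13 mRNAs fell into a high and a low set that did not overlap in any library. Levels are given as CPM, a gene's counts per 1000000 counts of its library. Divided by exonic length, the mean level in astrocytes was 9317 CPM per kb for mt-Co1, the catalytic core of cytochrome c oxidase (complex IV), and 3413 CPM per kb for mt-Cytb, the cytochrome b of complex III. The complex I subunits mt-Nd1, mt-Nd2, mt-Nd5, mt-Nd4 and mt-Nd6 followed with 2211, 1275, 1235, 1102 and 949 CPM per kb. The other 6 mRNAs were at 8.45 CPM per kb or below in astrocytes: mt-Nd3 (8.45), mt-Nd4l (4.57), mt-Co3 (2.92), mt-Atp6 (1.98), mt-Atp8 (1.84) and mt-Co2 (1.81). In mKate2- cells the same 6 lay between 0.747 and 2.41 CPM per kb, and in mKate2+ cells between 0.983 and 3.44. In the libraries, mt-Nd3, mt-Nd4l, mt-Co3, mt-Atp6, mt-Atp8 and mt-Co2 had 1 to 129 counts each, whereas the other 7 mRNAs had 3257 to 613734.

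**Figure D1:**
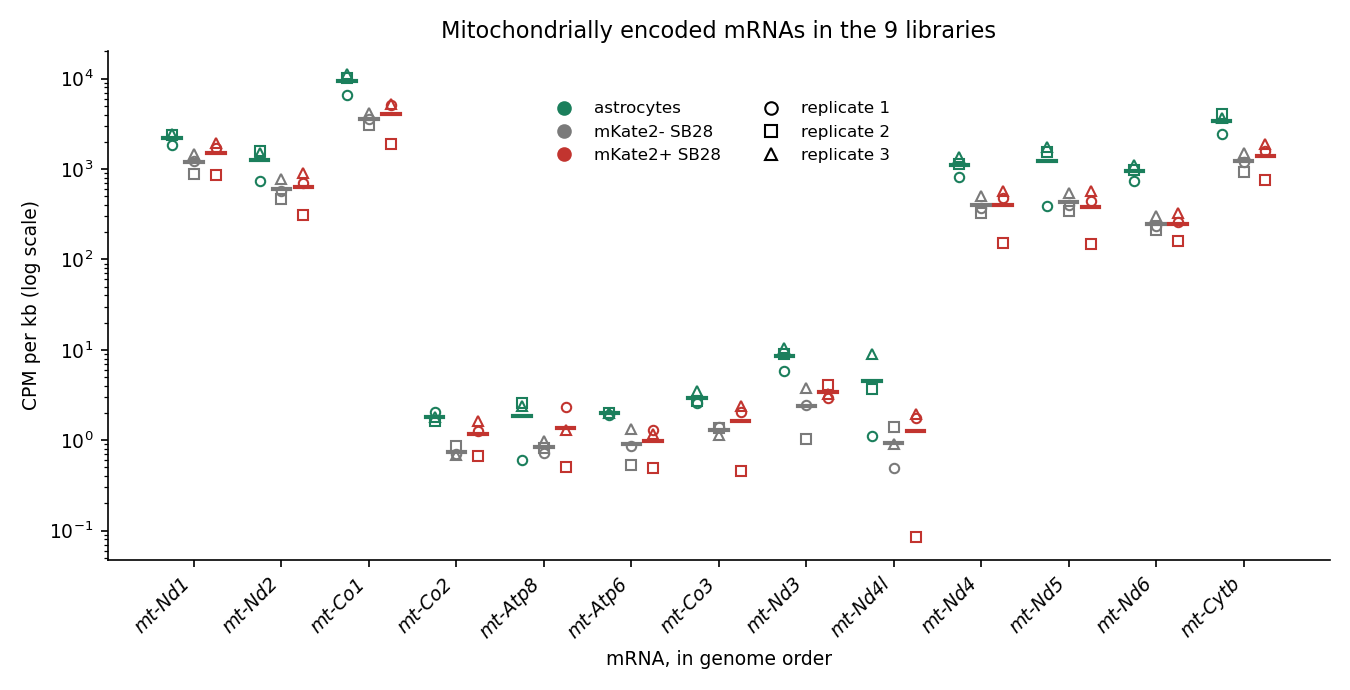
Level of the 13 mitochondrial mRNAs in the 9 libraries, as CPM divided by exonic length in kb, on a log axis. Each marker is a library, with its shape giving the replicate, and short bars are group means. Of the mRNAs, 7 sit above the other 6 in every library, with mt-Co1 highest.

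The 6 low mRNAs are those that lie wholly within chrM:6390-11042, a stretch of 4653 bases whose genes have their copies in the same order in a nuclear segment of 4654 bases at chr1:24611535-24616188 on the minus strand. In this nuclear copy of mitochondrial DNA 7 pseudogenes are annotated. Gm28661 matched mt-Co2 over 681 of its 684 bases, Gm10925 matched mt-Atp6 over 678 of 681 bases, and Gm28437 matched mt-Co3 over 783 of 784, each at 100% identity. Gm10222 matched the first 294 bases of mt-Nd4l and Gm28439 the first 876 of mt-Nd4, again without a difference. Gm28438 differed from mt-Nd3 at a single base in 345, T3C, counted from the 5′ end of mt-Nd3 with the mitochondrial base first. The first 80 bases of mt-Co2 (chrM:7013-7092) and mt-Nd3 (chrM:9459-9538), both on the plus strand of GRCm38 in GENCODE M21, show how little separates gene and copy: a capital marks a base that differs from the nuclear pseudogene.
mt-Co2: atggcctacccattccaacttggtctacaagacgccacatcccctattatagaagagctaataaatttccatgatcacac
mt-Nd3: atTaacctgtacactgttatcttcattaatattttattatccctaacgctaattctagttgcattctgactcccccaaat

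Counts in the table are of reads assigned to a single place. For mt-Co2, mt-Atp6, mt-Co3, mt-Nd3 and mt-Nd4l, between 97.6% and 99.9% of all windows of 100 bases occurred unchanged in an annotated nuclear transcript. The share was 60.8% for mt-Nd4, 30.8% for mt-Co1 and 3.20% for mt-Nd2, and it was 0% for mt-Nd1, mt-Nd5, mt-Nd6 and mt-Cytb. mt-Atp8 also scored 0%, but apart from the 43 bases it shares with mt-Atp6, the part of the nuclear segment that corresponds to it falls between the annotated pseudogenes, and windows were looked up in annotated transcripts alone. The 5 tRNA genes wholly inside the copied stretch, mt-Ts1, mt-Td, mt-Tk, mt-Tg and mt-Tr, had 0 to 5 counts in any library. For mt-Td and mt-Tk all 9 libraries were at 0, which allows up to 0.0764 to 0.123 CPM by a limit of 3 counts per library. The pseudogenes themselves drew few reads, with mean counts of 27.0 for Gm28661, 49.8 for Gm10925, 33.6 for Gm28437 and 20.1 for Gm28439. Gm29216, in the same segment, had a mean count of 33.2 and matched 483 bases of mt-Co1 at 99.8%. Nuclear genes elsewhere with a match and a mean count above 10 included Gm13340 (43.9), which matched all 1545 bases of mt-Co1 at 97.6%. Gm13341 (13.7) matched mt-Co2 at 95.9%, and the protein-coding Cep295 (616.6) matched mt-Tn over 71 bases at 91.5%. Cep295 also matched mt-Tl1, over 62 bases at 93.5%. Whether shared sequence sets the low counts of these 11 genes was not tested, since the reads were not used here. Values for the 6 low mRNAs are therefore uncertain as levels of their transcripts.

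**Figure D2:**
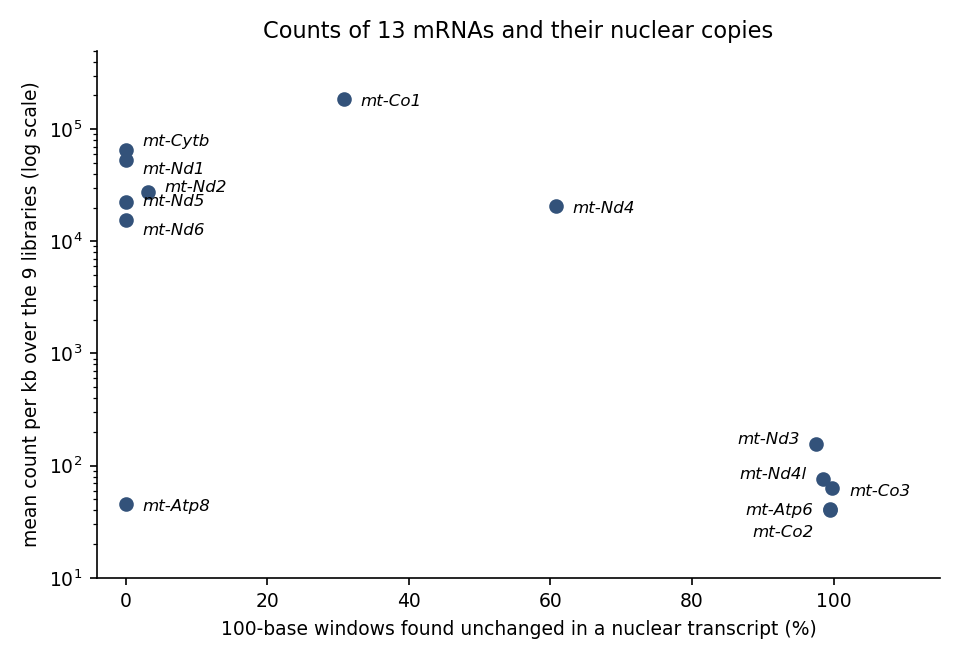
Mean count per kb over the 9 libraries of each mitochondrial mRNA on a log axis, against the percentage of its windows of 100 bases that occur unchanged in an annotated nuclear transcript. The 5 mRNAs at 97.6% or above have 40.3 to 156 counts per kb, mt-Atp8 at 0% has 45.2, and the other 7 mRNAs have 15466 to 184660.

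Mitochondrial mRNAs took a larger share of the counts in astrocytes than in either SB28 group. Their share was 1.76%, 2.91% and 3.13% of all counts in the 3 astrocyte libraries, 0.998%, 0.839% and 1.23% in mKate2- cells, and 1.37%, 0.552% and 1.51% in mKate2+ cells. Every astrocyte library was above every SB28 library, the mKate2+ libraries overlapped those of mKate2- cells, and mKate2+ replicate 2 was the lowest of all 9. The means were 2.60% ± 0.733 in astrocytes, 1.02% ± 0.197 in mKate2- cells and 1.14% ± 0.518 in mKate2+ cells (SD, n = 3 each). Counting error was small beside these spreads: the 95% Wilson interval of the lowest library was 0.549% to 0.554%, and such intervals cover counting error alone. In sorted bulk samples, fewer mitochondria or transcripts per cell and a different mixture of cells cannot be told apart.

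The tRNA genes made up a minute part of the signal and differed less between the group means than the mRNAs did. Their summed share was 0.00790% ± 0.00314 in astrocytes, 0.00422% ± 0.000830 in mKate2- cells and 0.00553% ± 0.000943 in mKate2+ cells (SD, n = 3 each). Reads over a tRNA gene may come from the tRNA or from an uncut precursor, and these cannot be told apart in the counts. Relative to the mRNAs, tRNA genes had 2.55, 2.93 and 3.41 counts per 1000 mRNA counts in astrocytes, 4.36, 3.97 and 4.05 in mKate2- cells and 3.86, 8.56 and 4.35 in mKate2+ cells. All SB28 libraries were above all astrocyte libraries in this ratio, and mKate2+ replicate 2 stood far above the rest.

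In mKate2+ replicate 2 tRNA counts shifted towards the light strand, mainly through the adjacent genes mt-Ta, mt-Tn and mt-Tc. These were at 3.23, 10.03 and 5.78 CPM there, against means of 1.22, 4.39 and 1.25 CPM in the other 2 mKate2+ libraries. The light-strand genes mt-Tp, mt-Te and mt-Ty moved less, at 17.1, 1.40 and 0.305 CPM against 16.7, 1.01 and 0.227 CPM. The 8 light-strand tRNA genes had 1.53, 1.47 and 1.37 counts per 1000 mitochondrial mRNA counts in astrocytes, 2.29, 2.24 and 1.64 in mKate2- cells, and 1.83, 6.88 and 1.64 in mKate2+ cells. The 14 heavy-strand tRNA genes had 1.02, 1.47 and 2.04 in astrocytes, 2.07, 1.73 and 2.41 in mKate2- cells, and 2.04, 1.68 and 2.71 in mKate2+ cells. In mKate2+ replicate 2 light-strand genes made up 80.4% of tRNA counts, against 37.7% to 60.1% in the other 8 libraries. These ratios also move with their other side, which was low there. As a level, the light-strand tRNA genes summed to 27.0, 42.7 and 42.7 CPM in astrocytes, 22.8, 18.8 and 20.2 CPM in mKate2- cells and 25.1, 37.95 and 24.8 CPM in mKate2+ cells. Replicate 2 was thus the highest SB28 library but within the astrocyte range, while its heavy-strand tRNA genes, at 9.26 CPM, were the lowest of all 9 libraries. mt-Nd6, the complex I subunit that is the single light-strand mRNA (chrM:13552-14070, minus strand), took 2.18%, 1.76% and 1.86% of mitochondrial mRNA counts in astrocytes, 1.23%, 1.30% and 1.26% in mKate2- cells and 0.975%, 1.503% and 1.11% in mKate2+ cells. Astrocyte values of the mt-Nd6 share did not overlap those of SB28 cells, and within mKate2+ cells replicate 2 had the highest share. As a level, mt-Nd6 was instead lowest of all 9 libraries in mKate2+ replicate 2, at 82.9 CPM. Whether reads were counted by strand is not given in the sources used here, so counts of light-strand genes may include reads from the opposite strand.

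**Figure D3:**
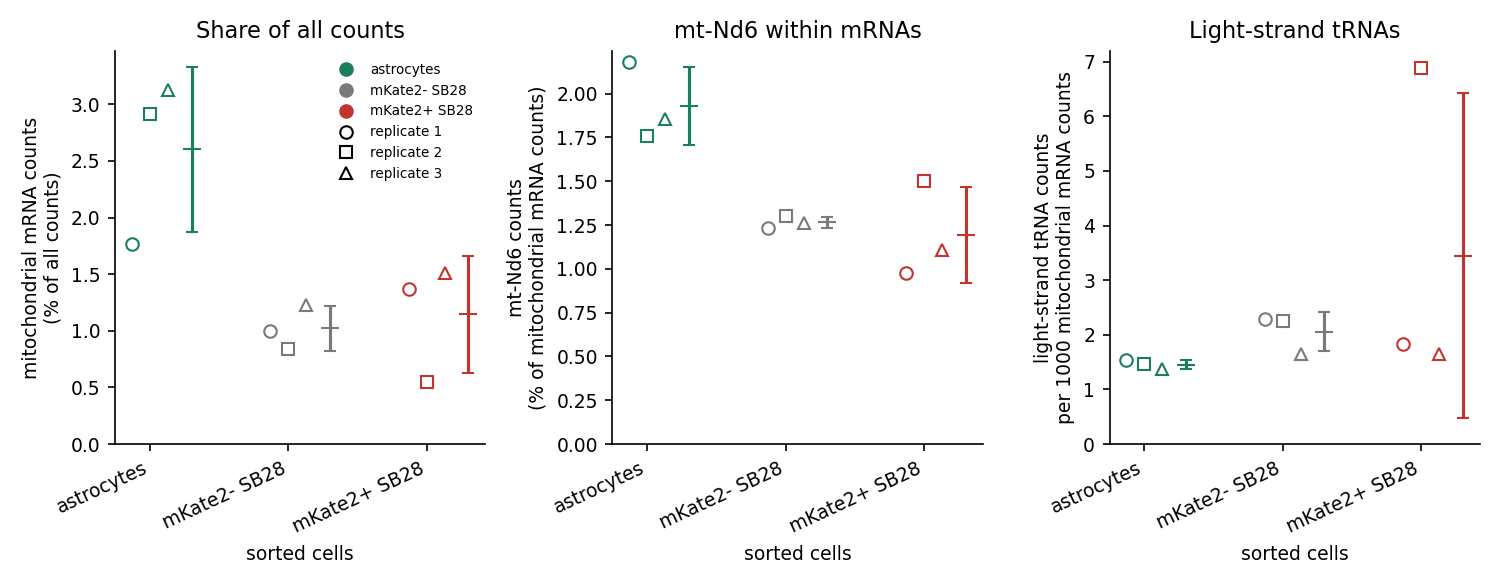
Mitochondrial mRNA as a percentage of all counts, mt-Nd6 as a percentage of mitochondrial mRNA counts, and light-strand tRNA counts per 1000 mitochondrial mRNA counts. Points are libraries and bars are mean ± SD of 3. Astrocytes are above both SB28 groups in the first and second panels, and mKate2+ replicate 2, at 6.88, stands apart in the third.

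The comparison of mKate2- SB28 cells with astrocytes asked how recipient cells without detected donor mitochondria differ from the donors. Nearly all testable mitochondrial genes were lower in the tumor cells, mt-Nd6 by the largest margin relative to its error, and mt-Tf was higher. By edgeR's quasi-likelihood test with Benjamini-Hochberg adjustment over all 13356 genes tested, 18 of the 21 mitochondrial genes that passed the filter fell and 1 rose at an adjusted p below 0.05, where 33.8% of all genes fell and 29.3% rose. Those that fell were all 12 tested mRNAs and 6 of 9 tested tRNA genes. With an absolute log2 fold change above 1 also required, 16 fell and 1 rose, against 22.4% and 11.5% of all genes. The median log2 fold change of the 21 was -1.25, beside -0.04 over all genes. Of the 21, mt-Tv, mt-Tc, mt-Ty, mt-Te, mt-Co2, mt-Atp6, mt-Nd3 and mt-Nd4l passed the filter of 1 CPM in at least 2 libraries through the astrocytes alone, so the filter favoured their fall. Of the 13 that passed it within each group, all 8 mRNAs fell, with a median of -1.39, and of 5 tRNA genes 4 fell and 1 rose, with a median of -1.07. mt-Atp8 and 13 tRNA genes did not pass.

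Among complex I subunits, mt-Nd6 was at 385, 511 and 581 CPM in astrocytes and at 123, 109 and 155 CPM in mKate2- cells. The ranges were far apart, and the astrocyte mean was 3.82 times the mKate2- mean. Its log2 fold change was -1.91 ± 0.18 (SE), with an adjusted p of 9.22e-05 by edgeR. mt-Nd4 was at 1119, 1570 and 1864 CPM in astrocytes against 509, 445 and 696 CPM, again without overlap, and fell by 1.45 on the log2 scale (SE 0.23, adjusted p = 0.000924). mt-Nd1 fell by 0.87, the smallest change among the mRNAs, with an adjusted p of 0.00638. For mt-Nd5 the astrocyte libraries were at 717, 2819 and 3222 CPM and the mKate2- libraries at 733, 625 and 981. Astrocyte replicate 1 was thus inside the tumor range, and mt-Nd5 fell by 1.504 with the wide SE of 0.48 (adjusted p = 0.0263). mt-Nd2 was also low in astrocyte replicate 1, at 772 CPM against 1628 and 1571, and its change was -1.06 (adjusted p = 0.0148). mt-Nd3 and mt-Nd4l fell by 1.80 and 2.24, from the low counts described above.

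Subunits of the other complexes fell as well. mt-Co1 was at 10099, 15619 and 17468 CPM in astrocytes and 5481, 4808 and 6523 CPM in mKate2- cells, with no overlap. It fell by 1.34 on the log2 scale (SE 0.23, adjusted p = 0.00136 by edgeR). mt-Cytb, the only mitochondrially encoded subunit of complex III, was at 2786, 4693 and 4235 CPM in astrocytes against 1367, 1071 and 1724 CPM. It fell by 1.47 (SE 0.24, adjusted p = 0.00109), and its groups did not overlap either. mt-Co2 and mt-Co3, the other mitochondrial subunits of complex IV, fell by 1.25 and 1.15, and mt-Atp6, part of the proton channel of ATP synthase, fell by 1.12 (adjusted p = 0.0148, 0.0112 and 0.0442). These values rest on the low counts described above, and mt-Co2 and mt-Atp6 passed the filter through the astrocytes alone. With a block for the replicate number the adjusted p of mt-Atp6 was 0.0573.

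The tRNA genes were less uniform. mt-Te, next to mt-Cytb but read from the other strand, was at 2.99, 4.56 and 4.72 CPM in astrocytes and at 0.956, 0.752 and 1.11 CPM in mKate2- cells. These ranges lay far apart, though it passed the filter through the astrocytes alone, and its log2 fold change was -2.11 ± 0.32 (SE, adjusted p = 0.000788 by edgeR). mt-Tp fell by 0.54 on the log2 scale (SE 0.17, adjusted p = 0.0240), from 15.6, 21.95 and 23.3 CPM to 14.7, 12.9 and 13.7. mt-Tl1, a leucine tRNA, fell by 1.25 (adjusted p = 0.0479), mt-Ta by 1.12 and mt-Tn by 1.07, and the adjusted p of mt-Ta, 0.0300, was 0.0581 with the replicate block. mt-Ty, the tyrosine tRNA, fell by 2.39 with an SE of 0.87 on 0 to 49 counts a library. mt-Tc and the valine tRNA mt-Tv did not pass, with log2 fold changes of -1.07 and -0.51 (adjusted p = 0.0638 and 0.460).

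mt-Tf went the other way. It had 25, 63 and 92 counts in astrocytes and 164, 131 and 146 in mKate2- cells, or 1.02, 1.93 and 2.62 CPM against 6.03, 3.65 and 4.89. Every mKate2- library was above every astrocyte library, by 2.62 times in the means. The log2 fold change was 1.40 ± 0.38 (SE), with an adjusted p of 0.0135 by edgeR. The next gene on the same strand is mt-Rnr1, which was not analysed here.

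Leaving out libraries in turn, 8 of the 19 calls were made in all 6 fits: mt-Nd1, mt-Co1, mt-Co3, mt-Nd3, mt-Nd4, mt-Nd6, mt-Te and mt-Cytb. The number of calls fell from 19 to 11 without astrocyte replicate 2, to 11 without mKate2- replicate 1 and to 10 without mKate2- replicate 2. Over all genes, lower calls went from 4515 to 4102, 3834 and 3930 in these fits, and higher calls from 3910 to 3406, 3176 and 3305. The call of mt-Tf was lost without mKate2- replicate 1, where its log2 fold change was 1.22. Other settings ended further calls. Without the filter these were mt-Co3, mt-Tp, mt-Co2, mt-Ta and mt-Atp6 (adjusted p = 0.0608, 0.0589, 0.0866, 0.0866 and 0.138 by edgeR). With all 9 libraries in 1 fit they were mt-Co3, mt-Tl1, mt-Ta and mt-Nd4l (0.0630, 0.0838, 0.0741 and 0.0507). With the length trend removed they were mt-Nd5 and mt-Atp6 (0.0592 and 0.0536), and with DESeq2 mt-Ty and mt-Atp6 (0.0510 and 0.0731).

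**Figure D4:**
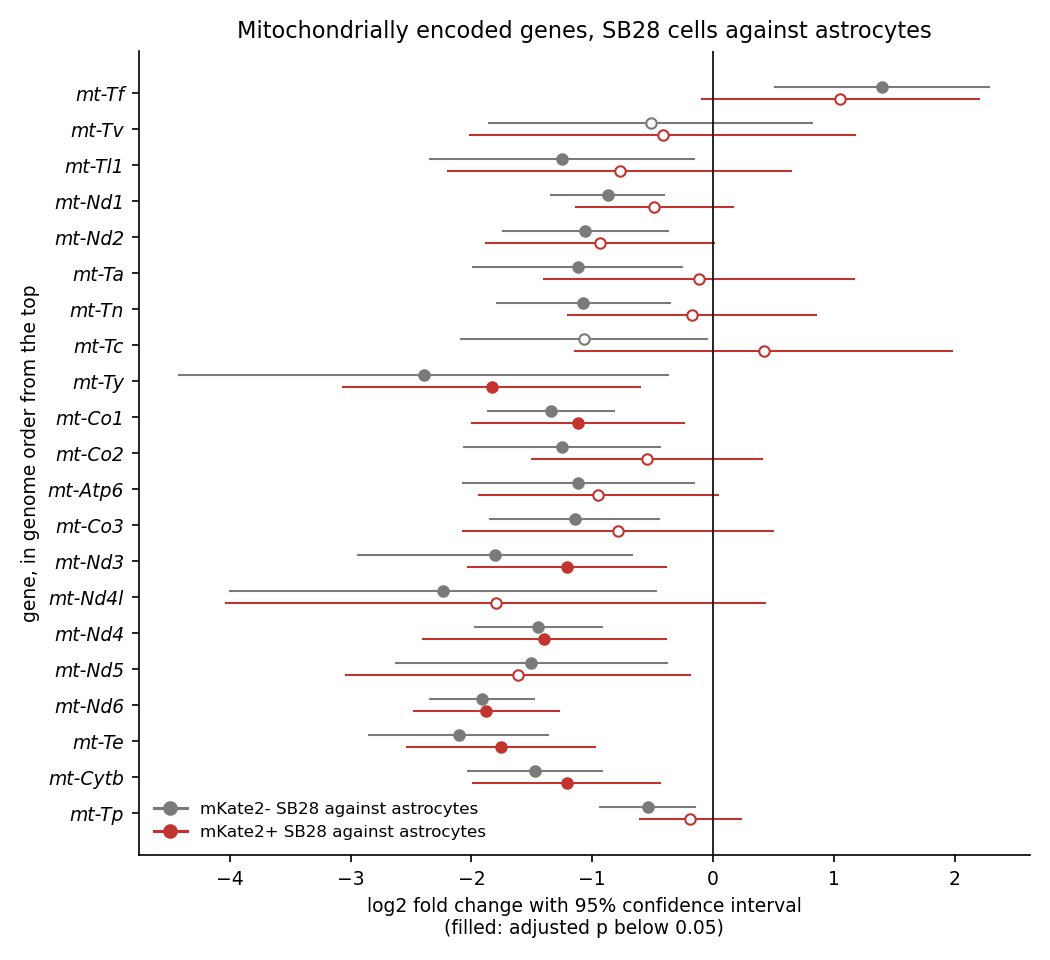
Log2 fold change with its 95% confidence interval for the 21 mitochondrial genes tested, for mKate2- cells against astrocytes and mKate2+ cells against astrocytes. Filled symbols have an adjusted p below 0.05 by edgeR. Both sets share the 3 astrocyte libraries. Most values are below 0, mt-Nd6 at -1.91 and -1.88, and mt-Tf is above it at 1.40 and 1.05.

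The comparison of mKate2+ SB28 cells with astrocytes asked the same of the cells that had taken up donor mitochondria. It shares the 3 astrocyte libraries with the comparison above, so the values are given side by side and the overlap is not a result. By edgeR with the same adjustment over 13342 genes, 7 of 21 tested mitochondrial genes fell and 0 rose, where 32.1% of all genes fell and 28% rose. The 7 also passed a log2 fold change of 1, as 22.8% of all genes did downwards and 12.2% upwards. At an unadjusted p below 0.05 there were 8 mitochondrial genes, where 8659 of all 13342 genes were below it. DESeq2 called 9 mitochondrial genes lower and 0 higher, and over all genes 4462 lower and 3901 higher. The median log2 fold change was -0.93, beside -0.02 over all genes. mt-Tv, mt-Ty, mt-Co2, mt-Atp6 and mt-Nd4l passed the filter through the astrocytes alone. Of the 9 mRNAs and 7 tRNA genes that passed within each group, 5 and 1 fell. Since no test compared the effects between both comparisons, the smaller count does not show that mKate2+ cells differ less from astrocytes.

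mt-Nd6 was at 134, 82.9 and 167 CPM in mKate2+ cells, below every astrocyte library. Its log2 fold change was -1.88 ± 0.26 (SE, adjusted p = 0.000603 by edgeR), beside -1.91 in mKate2- cells. mt-Te was at 1.05, 1.40 and 0.966 CPM, also below all astrocyte libraries, and fell by 1.75 (adjusted p = 0.00298). mt-Cytb at 1820, 857 and 2156 CPM fell by 1.21 (adjusted p = 0.0153), mt-Nd4 by 1.40 (0.0248), mt-Nd3 by 1.21 (0.0189), mt-Co1 by 1.12 (0.0338) and mt-Ty by 1.83 (0.0184). With the length trend removed, mt-Co1 and mt-Nd4 missed the threshold, at -0.94 and -1.23 (adjusted p = 0.102 and 0.0624 by edgeR). mt-Nd3 missed it without the filter, at -1.15 (0.0539), and mt-Ty with all 9 libraries in 1 fit, at -1.83 (0.0501). mt-Co1 was at 7955, 2950 and 8114 CPM, with replicate 2 far below the others but all 3 below the astrocytes. The log2 fold changes of mt-Nd1, mt-Nd2 and mt-Nd5 were -0.49, -0.93 and -1.62, and those of mt-Co2, mt-Co3, mt-Atp6 and mt-Nd4l were -0.55, -0.79, -0.95 and -1.80, with adjusted p from 0.0515 to 0.274. mt-Tf had 1.05 (adjusted p = 0.0989), on 158, 66 and 173 counts.

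mt-Tl1, mt-Ta, mt-Tn, mt-Tc, mt-Tp and mt-Tv had log2 fold changes of -0.77, -0.11, -0.18, 0.42, -0.19 and -0.42 against astrocytes, none of which passed. With the length trend removed, mt-Tp passed, at -0.79 (adjusted p = 0.00891 by edgeR). mt-Tl1, mt-Ta and mt-Tn were then at -1.35, -0.70 and -0.76 and did not pass, and mt-Tf was at 0.46. With the GC trend removed mt-Tf passed, at 1.07 (adjusted p = 0.0413 by edgeR). Without mKate2+ replicate 2, mt-Ta, mt-Tn and mt-Tc were at -0.80, -0.74 and -0.79. The calls of mt-Nd6, mt-Te and mt-Cytb were made in all 6 fits that left out a library. The number of calls fell from 7 to 4 without astrocyte replicate 2 and to 4 without astrocyte replicate 3. Without mKate2+ replicate 2 it was 8, and mt-Tf then rose by 1.39 on the log2 scale with an adjusted p of 0.0300. Over all genes, lower calls went from 4281 to 3785 and 3908 without these astrocyte libraries, and to 3977 without mKate2+ replicate 2. Higher calls went from 3732 to 3076, 3427 and 3465 in the same fits.

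Whether uptake of astrocyte mitochondria moved these genes within SB28 cells was addressed by mKate2+ against mKate2- cells. In edgeR's test over 11854 genes, 0 of the 17 mitochondrial genes tested passed an adjusted p of 0.05, as did 0% of all genes, and DESeq2 called 0 of them. The lowest adjusted p among the 17 was 0.923. At an unadjusted p below 0.05 there were 2, mt-Tn and mt-Tp, where 2.03% of all genes were below it. Under the study's own criterion for these groups (fold above 1.5, unadjusted p below 0.05 and mean count above 50), mt-Tn was higher, where 0.194% of all genes were higher and 0.169% lower. The median log2 fold change was 0.34, beside 0.00333 over all genes, and mt-Tc, mt-Te and mt-Nd3 passed the filter through mKate2+ cells alone.

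None of the mRNAs differed beyond the spread between libraries. The log2 fold changes were 0.38 for mt-Nd1, 0.11 for mt-Nd2, 0.04 for mt-Nd4, -0.12 for mt-Nd5, 0.03 for mt-Nd6, 0.21 for mt-Co1, 0.25 for mt-Cytb, 0.34 for mt-Co3 and 0.59 for mt-Nd3. Their 95% intervals were wide: from -0.48 to 0.53 for mt-Nd6, from -0.53 to 0.94 for mt-Co1, from -0.44 to 0.94 for mt-Cytb and from -0.88 to 0.96 for mt-Nd4. Changes within these bounds in either direction are not excluded by 3 libraries a group. In mKate2+ replicate 2, mt-Co1, mt-Nd4 and mt-Nd6 were lower than the mean of the other mKate2+ libraries by log2 ratios of -1.45, -1.79 and -0.86. Without that library the log2 fold changes of mt-Co1, mt-Cytb, mt-Nd1, mt-Nd4 and mt-Nd6 against mKate2- cells were 0.52, 0.53, 0.63, 0.41 and 0.23, and 0 genes of the 17 were called.

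The 3 adjacent light-strand tRNAs printed first above had the largest values in this comparison, and the same library carried them. mt-Tn was at 3.94, 3.37 and 3.35 CPM in mKate2- cells and at 4.30, 10.03 and 4.48 CPM in mKate2+ cells. The ranges did not overlap, but replicate 2 lay far above the others, and the log2 fold change of 0.90 ± 0.37 (SE, unadjusted p = 0.0401 by edgeR, adjusted p = 0.923) was 0.31 without it. mt-Tc was at 1.73, 0.836 and 0.603 CPM against 0.888, 5.78 and 1.61 CPM, and its 1.49 ± 0.74 became 0.26. mt-Ta was at 1.03, 0.919 and 1.04 CPM against 0.860, 3.23 and 1.58 CPM, and its 1.01 ± 0.49 became 0.30. For mt-Tc and mt-Ta the groups overlapped, since mKate2+ replicate 1 was within or below the mKate2- range. These tRNAs were among the named genes because the study's table, made from these libraries, lists them as higher, so their direction here is not independent evidence.

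mt-Tp differed in this respect. It was at 14.7, 12.9 and 13.7 CPM in mKate2- cells and at 17.6, 17.1 and 15.9 CPM in mKate2+ cells. All 3 mKate2+ libraries were slightly above all mKate2- libraries, and replicate 2 was not apart. Its log2 fold change was 0.34 ± 0.11 (SE, unadjusted p = 0.0150, adjusted p = 0.923 by edgeR) and 0.29 without replicate 2. mt-Te, the other light-strand tRNA printed above, had 0.35 ± 0.30, and 0.12 without that library. On the heavy strand, mt-Tl1 was at 13.3, 9.81 and 22.9 CPM in mKate2- cells and 22.4, 6.39 and 33.7 CPM in mKate2+ cells. In it replicate 2 was the lowest mKate2+ library, as for the mRNAs other than mt-Nd3, and the log2 fold change of 0.47 became 0.88 without it. mt-Tf and mt-Tv had -0.36 and 0.09.

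**Figure D5:**
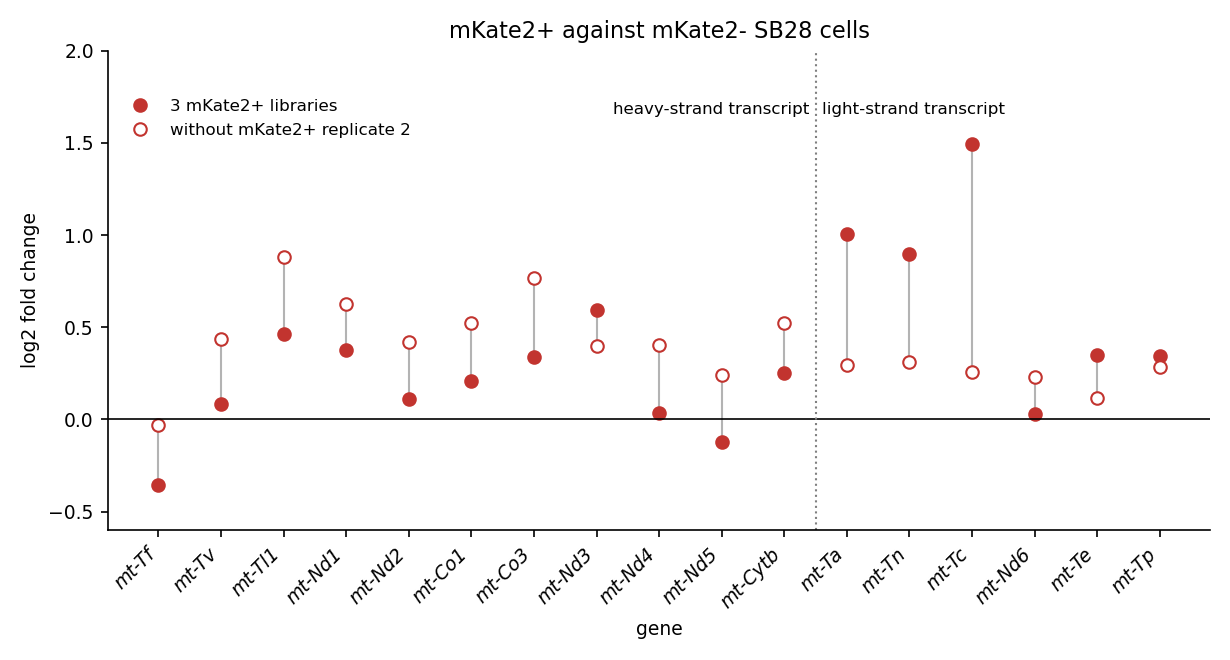
Log2 fold change of the 17 mitochondrial genes tested in mKate2+ against mKate2- SB28 cells, with all 3 mKate2+ libraries (filled) and without mKate2+ replicate 2 (open), by strand of the transcript. Without that library mt-Tc moves from 1.49 to 0.26 and mt-Co1 from 0.21 to 0.52.

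For complexes I, III and IV, the median of the nuclear genes against astrocytes lay above that of the mitochondrial ones. Among all genes, 29.3% rose and 33.8% fell in mKate2- cells, and 28% rose and 32.1% fell in mKate2+ cells, shares against which the counts of called subunits are to be read. For complex I, the 7 tested mitochondrial subunits had a median log2 fold change of -1.504 in mKate2- cells against astrocytes, and the 36 nuclear ones -0.02, with 5 higher and 5 lower by edgeR. The 5 mitochondrial subunits that passed the filter within each group, without mt-Nd3 and mt-Nd4l, had a median of -1.45. Ndufb11 and Ndufv3, accessory subunits, fell by 1.00 and 0.91, while Ndufb8 and Ndufb6 rose by 0.65 and 0.53 (adjusted p = 0.00122, 0.00149, 0.00797 and 0.0132). In mKate2+ cells Ndufb8 and Ndufb6 also rose, by 1.00 and 1.25 (adjusted p = 0.00804 and 0.0290), while Ndufb11 and Ndufv3 did not pass, at -0.39 and -0.50 (adjusted p = 0.352 and 0.189). For complex III, mt-Cytb at -1.47 stood beside a median of 0.11 over 9 nuclear subunits, of which 1 rose, Cyc1 (cytochrome c1, 0.70, adjusted p = 0.00383). Cyc1 rose by 0.88 in mKate2+ cells (adjusted p = 0.00176). Uqcr10 was at 0.33 in mKate2- cells (adjusted p = 0.181) and rose by 1.22 in mKate2+ cells (adjusted p = 0.0451), and Uqcrh was at -0.14 and 0.46 (adjusted p = 0.439 and 0.286). For complex IV the medians were -1.25 over 3 mitochondrial and 0.02 over 11 nuclear subunits. The first is the value of mt-Co2, which passed the filter through the astrocytes alone and is almost wholly shared with a nuclear copy, and mt-Co1 was at -1.34. Among the nuclear genes, Cox7b rose by 0.69 and Cox6a1 fell by 0.59, a value that turned to 0.147 with a GC trend removed. In mKate2+ cells Cox7b rose by 1.39 (adjusted p = 0.0291), and Cox6a1 did not pass, at 0.26 (adjusted p = 0.613). Cox8a was at 0.39 in mKate2- cells (adjusted p = 0.0603) and rose by 1.37 in mKate2+ cells (adjusted p = 0.0346), and Cox7a2 was at -0.21 and 0.39 (adjusted p = 0.271 and 0.389). For ATP synthase, mt-Atp6 at -1.12 stood beside 0.21 over 18 nuclear genes, of which 6 rose and 1 fell. The value of mt-Atp6 has the same limits as that of mt-Co2, and no mitochondrial subunit of ATP synthase passed the filter within each group. Atp5g3, a gene for the c-ring subunit, rose by 0.89, and Atpif1, the inhibitor of the enzyme, fell by 0.42 (adjusted p = 0.00126 and 0.0443). Atp5f1, a subunit of the peripheral stalk, rose by 0.62 (adjusted p = 0.00181), and Atp5d was at -0.21 (adjusted p = 0.386). In mKate2+ cells Atp5g3 and Atp5f1 rose by 1.33 and 0.76 (adjusted p = 0.00244 and 0.00232), while Atpif1 and Atp5d did not pass, at 0.20 and 0.19 (adjusted p = 0.666 and 0.585). Of the 4 genes of complex II, which has no mitochondrial subunit, Sdhd rose by 0.31 and Sdha fell by 0.50 in mKate2- cells, and by 0.40 and 0.38 in mKate2+ cells. Sdhb and Sdhc did not pass, at 0.06 and -0.19 in mKate2- cells and 0.22 and -0.04 in mKate2+ cells (adjusted p = 0.720, 0.200, 0.259 and 0.829).

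In mKate2+ cells against astrocytes the nuclear medians were 0.53 for complex I, 0.88 for complex III, 0.69 for complex IV, 0.79 for ATP synthase and 0.09 for complex II. In these lists 7, 2, 2, 7 and 1 genes rose, and 0, 0, 0, 0 and 1 fell, where 28% of all genes rose and 32.1% fell. These medians rested on mKate2+ replicate 2. Without it they were 0.07, 0.18, 0.13, 0.26 and -0.01, with 4, 1, 2, 6 and 0 genes higher and 2, 0, 0, 0 and 1 lower. Without that library the log2 fold changes of Ndufb6, Cox7b, Cox8a and Uqcr10 were 0.57, 0.60, 0.57 and 0.47. Uqcr10 and Sdhd (0.37) no longer passed the test then, while Ndufb11 and Ndufv3 passed it, at -0.92 and -0.95. Ndufb6, Cox7b, Cox8a and Uqcr10 also missed the threshold when any 1 astrocyte library was left out, at 1.07 to 1.51. The mitochondrial medians over all subunits tested were -1.40 for complex I, -1.21 for complex III and -0.79 for complex IV with all libraries, and -1.24, -0.92 and -0.35 without mKate2+ replicate 2. They include mt-Nd4l and mt-Co2, which passed the filter through the astrocytes alone, and without these 2 subunits the medians with all libraries were -1.30 for complex I and -0.95 for complex IV. The library lowest in mitochondrial mRNA was thus the library that raised the nuclear subunits. That library, mKate2+ replicate 2, also stood apart from its replicates across the count table. Chi-square per degree of freedom, a measure of difference between 2 libraries, was 148 and 134 against mKate2+ replicates 1 and 3. It was 17.3 between these replicates, and 82.0 to 144 between astrocyte libraries. Whether the pattern is particular to respiratory genes was not tested. Between mKate2+ and mKate2- cells, the nuclear medians of complexes I, III, IV, V and II were 0.55, 0.60, 0.73, 0.51 and 0.13 with 0 genes called, and 0.02, 0.06, 0.03, 0.04 and 0.04 without that library.

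Many nuclear genes that make and process mitochondrial RNA were higher in SB28 cells than in astrocytes. Of 34 such genes, 19 rose and 0 fell in mKate2- cells against astrocytes, with a median log2 fold change of 0.48, and 17 rose and 0 fell in mKate2+ cells, with a median of 0.55. The shares of all genes that rose were 29.3% and 28%. Trmt10c, a subunit of mitochondrial RNase P, which cuts at the 5′ ends of tRNAs, rose by 1.33 and 1.24 (adjusted p = 0.000256 and 0.000534 by edgeR). Tbrg4, an RNA-binding protein of the FASTK family, rose by 1.31 and 1.32. Polrmt, the mitochondrial RNA polymerase, and Mterf4 did not pass, at -0.31 and -0.44 in mKate2- cells (adjusted p = 0.0845 and 0.0721) and -0.31 and -0.42 in mKate2+ cells (adjusted p = 0.108 and 0.0978). Of 17 genes of mitochondrial DNA replication and packaging, 9 rose and 0 fell in each comparison, with medians of 0.43 and 0.46. Lig3, a DNA ligase, rose by 1.39 and 1.33, and Twnk, the replicative helicase, by 0.76 and 0.77. Tfam, which packages the mitochondrial genome and starts its transcription, was at -0.01 and -0.05 (adjusted p = 0.929 and 0.741), and Dguok at -0.14 and -0.00347 (adjusted p = 0.469 and 0.986). Of 23 aminoacyl-tRNA synthetases that serve mitochondria, 12 rose and 1 fell in mKate2- cells and 11 rose and 0 fell in mKate2+ cells, with medians of 0.39 and 0.48. Gars and Kars, which also charge cytosolic tRNAs, rose by 1.68 and 1.73 and by 1.49 and 1.60, and Fars2, the mitochondrial phenylalanine synthetase, fell by 0.64 in mKate2- cells (adjusted p = 0.0385) and was at -0.45 in mKate2+ cells (adjusted p = 0.136). Lars2, the mitochondrial leucine synthetase, was at -0.14 and 0.14 (adjusted p = 0.885 and 0.891). In these lists 0 genes were called between mKate2+ and mKate2- cells, with medians of -0.02, 0.00549 and 0.03.

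Some pseudogenes of mitochondrial origin passed the filter and were tested. Of 3 tested in mKate2- cells against astrocytes, 2 fell: Gm29216, which matches part of mt-Co1, by 1.48, and Gm10925 by 0.98 (adjusted p = 0.00608 and 0.0356 by edgeR), where 33.8% of all genes fell. Both passed the filter through the astrocytes alone, with 0.736, 0.557 and 0.536 CPM and 0.993, 0.892 and 1.61 CPM in mKate2- cells. In mKate2+ cells against astrocytes, Gm29216 and Gm10925 had -1.13 and -0.96 (adjusted p = 0.0615 and 0.0755). Over the matched bases these pseudogenes are 99.8% and 100% identical to mt-Co1 and mt-Atp6. Their counts may therefore include reads of those genes and are not a separate measurement.

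Astrocyte markers separated the groups together with the mitochondrial genes. Summed over 15 genes they were at 1235, 1190 and 2089 CPM in astrocytes, 398, 383 and 356 CPM in mKate2- cells and 407, 519 and 347 CPM in mKate2+ cells. Cst3 had the highest mean in each group, though Apoe was above it in astrocyte replicates 1 and 2. Slc1a3, an astrocyte glutamate transporter, was at 173, 177 and 236 CPM in astrocytes and at 2.38 CPM or below in SB28 cells, and Apoe was at 260 to 270 CPM against 3.22 CPM or below. Clu did not separate the groups, at 91.5, 64.6 and 134 CPM in astrocytes and 93.05 to 141 CPM in SB28 cells. Gjb6 was at 0 in all 9 libraries, and Gfap was low in astrocytes, at 8.83, 3.42 and 19.4 CPM. The higher sum in mKate2+ replicate 2 came with Cst3, at 305 CPM against 147 to 169 in the other 5 SB28 libraries, while Slc1a3 was at 0.560 CPM and Apoe at 1.96 CPM there, the lowest of all libraries. Fibroblast markers (6 genes, led by Col1a2) summed to 1423, 1512 and 1096 CPM in astrocytes, 733, 923 and 924 CPM in mKate2- cells and 844, 591 and 814 CPM in mKate2+ cells. Col3a1 on that list went the opposite way, at 13.1, 20.1 and 45.9 CPM in astrocytes and 53.5 to 117 CPM in SB28 cells. Oligodendrocyte markers (7 genes, led by Cnp, with Opalin at 0) summed to 137, 99.1 and 107 CPM in astrocytes and to 22.4 to 28.4 CPM in SB28 cells. Cnp made up nearly all of this sum, at 136, 97.5 and 104 CPM in astrocytes, while Mbp did not separate the groups, at 0.491, 0.520 and 1.22 CPM in astrocytes and 0.436 to 1.12 CPM in SB28 cells.

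Endothelial markers (6 genes, led by Flt1) stood out in astrocyte replicate 3, at 199 CPM against 7.57 and 14.4 in the other astrocyte libraries and 48.5 to 61.2 in SB28 cells. Flt1 alone was at 192 CPM in astrocyte replicate 3. Cdh5 and Kdr were also highest there among astrocytes. Cdh5 was at 0.654, 0.367 and 5.64 CPM in astrocytes, and Kdr at 0.0818, 0.367 and 0.854 CPM. Pecam1 and Tek were instead lowest in that library among astrocytes, at 0.455 and 0.142 CPM, and Cldn5 was at 0 in all 3 astrocyte libraries. Microglia and macrophage markers (11 genes, led by Tmem119) summed to 38.1 to 64.8 CPM in all libraries, a sum carried by Tmem119, which was at 24.8 to 39.1 CPM in astrocytes and 47.3 to 61.1 CPM in SB28 cells. Other markers on that list went the opposite way: Cd68 was at 15.7, 17.9 and 6.69 CPM in astrocytes and 1.54 to 3.54 CPM in SB28 cells, and P2ry12 at 1.06, 2.54 and 0.484 CPM against 0.0555 CPM or below, with Cx3cr1 at 0.0409 CPM in astrocyte replicate 1 and at 0 in the other 8. Neuron markers (6 genes, led by Map2 in the astrocyte mean) summed to 53.4, 98.8 and 88.5 CPM in astrocytes and 38.6 to 48.8 CPM in SB28 cells, with Rbfox3 at 0. Stmn2 was at 11.4, 43.4 and 38.5 CPM in astrocytes and 0.474 to 1.47 CPM in SB28 cells. Tubb3 was instead higher in SB28 cells, at 18.2 to 24.8 CPM against 9.45 to 13.2. The part of these other cell types in the mitochondrial differences was not tested.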

How the data were processed

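RNA from 3 libraries each of astrocytes, mKate2- and mKate2+ SB28 cells was sequenced. The values are counts per gene that the authors deposited without normalization, made with Trimmomatic 0.36, STAR 2.5.2b on GRCm38 and featureCounts of Subread 1.5.2, per the submitters' processing notes and the study's methods. RNA selection, strand setting and annotation release are not given in the sources used here. The sort gates in the labels give CellTrace Violet to tumor cells and the study's methods give it to astrocytes, so libraries were taken by their titles. Names, strands, lengths and sequences came from GENCODE M21, which left 345 gene IDs unnamed. Members and gene lists were chosen with earlier results of these data known.

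Each comparison used its 6 libraries, genes above 1 CPM in at least 2 of them, TMM factors, and edgeR 4.0.16's quasi-likelihood test (R 4.3.3) with Benjamini-Hochberg adjustment over all genes tested. CPM used total counts. Nuclear copies were found by aligning mitochondrial transcripts to nuclear ones with blastn 2.17.0 at 90% identity or more, and not every match is reported here. On simulated counts for mKate2- against astrocytes, edgeR recovered 200 of 200 changed genes with 14 false calls among 12989. The simulation gave every gene the same dispersion and changed only well-counted genes, by a fixed fold. Recovery of smaller changes or of genes with low counts was not tested. Alternatives were DESeq2 1.42.0, upper-quartile factors, no filter, all 9 libraries in 1 fit, a replicate block, removal of length or GC trends, and leaving out each library.

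Named were all mitochondrial mRNAs, tRNA genes that passed a filter or that the study lists, nuclear copies with mean counts over 10, and from each list the 2 genes of smallest p per direction in mKate2- cells against astrocytes. Departing from that rule, single list genes are given without values between mKate2+ and mKate2- cells, and cell type markers as sums with selected genes.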

Additional observations from a re-analysis of the deposited data

How the results depend on the processing

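The number of mitochondrial genes called ranged from 10 to 18 in mKate2- cells and from 4 to 9 in mKate2+ cells against astrocytes when libraries were left out in turn, beside 19 and 7. With a block for the replicate number it was 17 and 7. The block ended the calls of mt-Ta and mt-Atp6 in mKate2- cells, with adjusted p of 0.0581 and 0.0573 by edgeR, and no other call of a mitochondrial gene. The groups came from 3 co-cultures, but the sources used here do not say that a number marks the same co-culture in each group, and deviations of same-numbered libraries correlated between -0.205 and 0.329. Other settings gave 14 to 20 and 6 to 10, and 0 calls between mKate2+ and mKate2- cells in all. Removing the length or GC trend, or the filter, moved the median of all genes in mKate2- cells from -0.04 to 0.11, 0.20 and -0.21, and in mKate2+ cells from -0.02 to 0.13, 0.21 and -0.19. No mitochondrial gene changed direction in mKate2- cells against astrocytes. Values that turned elsewhere follow, and the cause was not tested.

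In mKate2+ cells against astrocytes, mt-Ta became 0.0119 with the GC trend removed and mt-Tc -0.0161 with the replicate block and -0.21 with the length trend removed. The GC trend gave 0.141 for Sdhc, 0.180 for Dguok and 0.317 for Polrmt there, the length trend 0.0697 for Sdhc, 0.104 for Dguok and 0.0496 for Tfam, no filter 0.0188 for Sdhc, 0.0541 for Dguok and 0.00552 for Tfam, and the block 8.35e-06 for Dguok and -0.40 for Lars2. Against mKate2- cells, the block and the length trend gave -0.0248 and -0.0860 for mt-Tv, -0.12 and -0.0185 for mt-Nd4, and -0.00324 and -0.11 for mt-Nd6. In mKate2- cells against astrocytes, the GC trend gave 0.0205 for Sdhc, 0.00633 for Uqcrh, 0.147 for Cox6a1, 0.0788 for Dguok, 0.0142 for Tfam, 0.37 for Polrmt and 0.41 for Atp5d. The length trend gave 0.0819 for Uqcrh, 0.0950 for Tfam and 0.11 for Atp5d, no filter gave 0.0402 for Tfam, and upper-quartile factors gave -0.0188 for Sdhb.

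Without a library, log2 fold changes of mKate2+ cells against astrocytes ranged from -0.998 to 0.0474 for mt-Tv, -0.80 to 0.25 for mt-Ta, -0.74 to 0.0554 for mt-Tn, -0.79 to 0.85 for mt-Tc, -0.42 to 0.44 for Atpif1, -0.44 to 0.53 for Cox6a1, -0.22 to 0.66 for Cox7a2, -0.0959 to 0.69 for Uqcrh, -0.126 to 0.45 for Atp5d, -0.153 to 0.0583 for Sdhc, -0.101 to 0.102 for Dguok and -1.44 to 0.88 for Lars2. Against mKate2- cells they ranged from -0.0918 to 0.43 for mt-Tv, -0.0639 to 0.88 for mt-Tl1, -0.23 to 0.42 for mt-Nd2, -0.00763 to 0.52 for mt-Co1, -0.0388 to 0.77 for mt-Co3, -0.31 to 0.41 for mt-Nd4, -0.50 to 0.24 for mt-Nd5, -0.21 to 0.23 for mt-Nd6 and -0.0131 to 0.53 for mt-Cytb. In mKate2- cells against astrocytes they ranged from -0.37 to 0.0513 for Atp5d, -1.15 to 0.61 for Lars2, -0.0615 to 0.185 for Sdhb and -0.0824 to 0.0488 for Tfam.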
